A study of Sus scrofa with 6 samples.

Results

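WNT10B, DKK2, SFRP1, SFRP2, FZD4, CTNNB1, CTNNBIP1 and CTNNAL1, genes of WNT signaling and of the catenins, were followed in preovulatory ovarian follicles of 3 Chinese Taihu (TH) and 3 Large White (LW) sows, numbered TH1 to TH3 and LW1 to LW3. Their probe sets were taken from the probe table of the Affymetrix porcine array, and a probe set was kept where the table gave it exactly 1 gene symbol and this symbol was one of the 8. The rule found 16 of the 24123 probe sets, for 7 of the 8 genes. SFRP2 was not among the symbols of the table and has no value here. The sows were cycling and in each breed had at least 2 parities. Every sow received 1000 IU of PMSG, which acts like FSH, and 80 h later 500 IU of hCG, which acts like LH, and was killed 30 to 38 h after that. Healthy follicles over 5 mm were dissected, and each array held the RNA of 1 sow. In the labels the TH sows are Chinese Erhualian, which belongs to the Taihu pigs, and the breeds are given the same treatment. Each breed came from its own farm, so breed and farm cannot be told apart.

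WNT proteins are secreted ligands that bind Frizzled receptors. In the canonical branch the signal spares beta-catenin from destruction, and beta-catenin then enters the nucleus and joins transcription factors of the TCF and LEF family. Secreted antagonists act outside the cell. Those of the SFRP family bind WNT ligands, and those of the DKK family bind the LRP co-receptor. In the ovary, WNT4 is needed for female development of the gonad, beta-catenin works with FSH signaling in granulosa cells, and mice without Fzd4 do not form a working corpus luteum.

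The deposited value is a normalized signal intensity on a linear scale, brought to a common level on every array, so a difference in the total RNA of a follicle cannot be seen in it. In a sample of whole follicles, fewer cells of a type and less RNA per cell cannot be told apart. All 16 probe sets had a signal above 50 on each of the 6 arrays. Differences are given as log2 of TH over LW, from limma fitted over 19196 probe sets, 2-sided, with Benjamini-Hochberg adjusted p-values over all of them. An exact permutation test of 3 sows against 3 cannot give a p below 0.1.

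No probe set of these genes passed an adjusted p of 0.05 (0 of 16 by limma, adjusted p 0.993 or above), against 4 of 19196 probe sets (0.0208%) on the whole array. At an unadjusted p of at most 0.05, 4 of the 16 were called, 3 lower and 1 higher in TH sows, where 3.86% of all tested probe sets were called (2.30% lower and 1.56% higher). Unpaired and 2-sided, the methods' t-test made 4 calls at unadjusted p and 0 after adjustment, but with DKK2 lost (unadjusted p = 0.102) and the CTNNBIP1 probe set Ssc.24399.2.S1_at called in its place (log2 -0.12, unadjusted p = 0.0221). CTNNBIP1 and CTNNAL1 had the differences of greatest size, 1 in each direction, and the remaining calls were a DKK2 and an SFRP1 probe set. WNT10B, DKK2, CTNNBIP1 and CTNNAL1 had been named by the study from these same arrays, and their 7 probe sets held 3 of the 4 calls, so this count is not independent evidence. Of the 9 probe sets of CTNNB1, SFRP1 and FZD4, 1 was called. Without TH1, 3 of the 16 were called, 2 lower and 1 higher, against 3.66% of all (2.19% lower and 1.47% higher), and 2 were called without TH2 or without LW3, a CTNNBIP1 and the CTNNAL1 probe set.

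In 5 of the 16 probe sets the LW and TH signals did not overlap, 4 lower and 1 higher in TH sows, against 9.10% of all tested probe sets (5.12% lower and 3.98% higher). Apart from 1 SFRP1 probe set, these belonged to DKK2, CTNNBIP1 and CTNNAL1, which the study named from these same arrays. This count is therefore not independent evidence either. In 10 of the 16 the log2 difference lay within 0.3 of 0. The median difference of the 16 was -0.03, and that of all tested probe sets was 0.00. The signals of the 16 spread over a median of 1.72-fold between the lowest and the highest sow, and those of all tested probe sets over 1.75-fold.

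**Figure D1:**
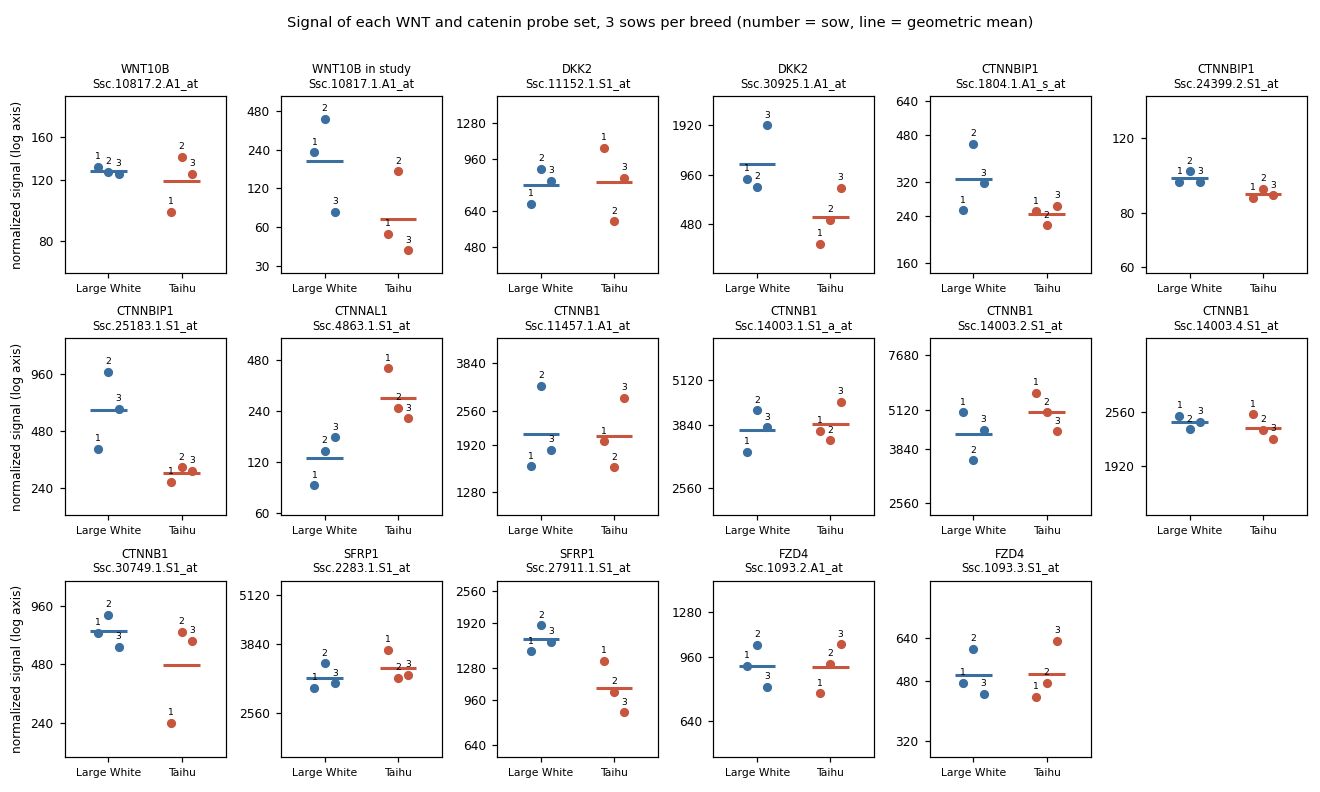
Normalized signal (y axis, log scale) of the 16 probe sets and of the further WNT10B probe set named by the study, each panel 1 probe set. Points are sows, 3 Large White and 3 Chinese Taihu, numbered by sow, and lines are geometric means. CTNNBIP1 on Ssc.25183.1.S1_at lies lower in all 3 TH sows (257 to 307, against 387 to 994), and CTNNAL1 lies higher in all 3 (217 to 429.8, against 87.3 to 167).

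The tissue markers bear on how these values are read. On the array of TH1 all 7 measured markers of surface epithelium and oviduct had their highest signal. Their summed signal was 39510 there and 1406 to 1490 in the other TH sows. It was 1164 in LW1 and 1499 in LW2, but 7147 in LW3, so these markers were raised in LW3 as well. The summed signal of 4 genes of steroid synthesis was 1873 in TH1, of which FDX1 gave 1692. It was 10010 to 14290 in TH3, LW3 and LW2, but 49230 in LW1 and 50020 in TH2. The 3 measured theca markers summed to 165.5 in TH1 and to 1029 to 5501 in the other sows. In LW2, 4 of 5 leukocyte markers were highest, with a sum of 8643 against 1545 to 2726 in the other sows. The 7 granulosa cell markers summed to 1703 in TH1 and to 10530 to 14020 in the others, but did not all move one way. INHA, an inhibin subunit, stood at 446 in TH1 but at 6510 to 10680 on the other arrays, whereas INHBA was highest in TH1 (899, against 233 to 387). CYP19A1 differed little, with 119 in TH1, 117 in TH3 and 88.4 to 99.6 in the other sows. FSHR, the FSH receptor, exceeded 50 in 1 sow alone, and no measured marker was at 0 on any array. The part of these cells in the results below was not tested.

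WNT10B is a canonical WNT ligand known for restraining fat cell formation. On its probe set, Ssc.10817.2.A1_at, the signal was 131, 126 and 125 in LW sows and 96.8, 139.8 and 125 in TH sows. The breeds overlapped, and the lowest value was that of TH1. Between the breeds the log2 difference was -0.10 (SE 0.18, 95% interval -0.53 to 0.34, unadjusted p = 0.607), and it was 0.05 without that sow.

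A further probe set of the WNT10B transcript cluster, Ssc.10817.1.A1_at, carries no symbol in the probe table and is not among the 16. It is the one that the study calls WNT10B. Its signal was 228, 416 and 78.6 in LW sows and 53.2, 163 and 39.8 in TH sows. TH2 lay above LW3, so the breeds overlapped (exact permutation p = 0.2). This gave a log2 difference of -1.48 with a wide error (SE 0.75, 95% interval -3.30 to 0.34, unadjusted p = 0.0942). Across the 6 sows the signal ranged 10.5-fold, a wider range than in 97.1% of the tested probe sets. With 1 sow left out the log2 difference ran from -2.14 to -0.93. It was -1.28 without TH1 (unadjusted p = 0.190), -0.93 without LW2 (0.266), -1.07 without TH3 (0.246) and -1.37 without LW1 (0.194). It was -2.14 without LW3 (unadjusted p = 0.0228) and -2.09 without TH2 (0.0286), the sows by which the breeds overlapped. With arrays weighted by their reliability it was -2.1 (unadjusted p = 0.0329). At -1.48, the methods' t-test gave an unadjusted p of 0.0462 when paired by array number and 0.189 unpaired. With array number as a replicate block limma gave 0.00438, but the labels do not say that array numbers pair the sows. The other normalizations, filters, floor and prior variance gave 0.0914 to 0.0968. Adjusted p-values were 0.730 or above in all of these.

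DKK2, of the Dickkopf family, binds the WNT co-receptor LRP6. On Ssc.30925.1.A1_at the signal was 901, 809 and 1914 in LW sows and 364, 509.6 and 798 in TH sows. The gap between the breeds was narrow, from 798 to 809, and LW3 stood far above the rest. LW sows had a mean of 1208 ± 614 and TH sows one of 557 ± 221 (SD, n = 3 each), a ratio of 0.461. The log2 difference was -1.08 (SE 0.44, 95% interval -2.13 to -0.03, unadjusted p = 0.0457, adjusted p = 0.993 by limma). This call was lost without LW3 (-0.69, unadjusted p = 0.127), without LW1 (-1.23, 0.0583), without TH1 (-0.81, 0.123) and without TH2 (-1.05, 0.0974). It was also lost by the methods' t-test, unpaired (unadjusted p = 0.102) and with arrays weighted by their reliability (-0.73, 0.138).

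The other DKK2 probe set, Ssc.11152.1.S1_at, did not share this pattern. Its signal was 677, 889 and 809.8 in LW sows and 1052, 589 and 831 in TH sows, so the highest and the lowest value both came from TH sows. Between the breeds the log2 difference was 0.03 (SE 0.27, 95% interval -0.62 to 0.67, unadjusted p = 0.926). The 2 DKK2 probe sets had a Pearson correlation of -0.15 over the 6 arrays, which share their scaling and is given as a description. The log2 ratio of Ssc.11152.1.S1_at to Ssc.30925.1.A1_at was -0.51 on average in LW sows and 0.60 in TH sows. The TH mean rested on TH1, with a ratio of 1.53 against 0.21 and 0.06 in TH2 and TH3. The LW mean rested on LW3, with -1.24 against -0.41 and 0.14 in LW1 and LW2. The ratios of the breeds overlapped (difference 1.10, exact permutation p = 0.2, 2-sided).

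SFRP1 is a secreted antagonist with a Frizzled-like domain that takes up WNT ligands. Its probe set Ssc.27911.1.S1_at had a signal of 1487, 1878 and 1622 in LW sows and 1366, 1030 and 857 in TH sows. Each TH sow lay below each LW sow. LW sows had a mean of 1662 ± 199 and TH sows one of 1084 ± 259 (SD, n = 3 each), a ratio of 0.652, and the log2 difference was -0.64 (SE 0.23, 95% interval -1.20 to -0.08, unadjusted p = 0.0315, adjusted p = 0.993 by limma). Without TH1 the difference was larger (-0.82, unadjusted p = 0.0115). The call was lost without TH2 (-0.61, unadjusted p = 0.0700), TH3 (-0.48, 0.0981), LW2 (-0.55, 0.105) or LW3 (-0.65, 0.0705).

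The second SFRP1 probe set, Ssc.2283.1.S1_at, was among the steadiest of the array. Its signal was 2966, 3428 and 3049 in LW sows and 3707, 3141 and 3199 in TH sows, a range of 1.25-fold, and 6.05% of the tested probe sets had a smaller one. This gave a log2 difference of 0.09 (95% interval -0.27 to 0.44, unadjusted p = 0.570). The log2 ratio of Ssc.2283.1.S1_at to Ssc.27911.1.S1_at was 0.87 to 1.0 in LW sows and 1.44, 1.61 and 1.90 in TH sows. These ratios did not overlap, with a difference of 0.72 (exact permutation p = 0.1, the smallest possible). Such ratios were formed for the 16 pairs of probe sets that share a gene, and adjusted over these pairs the p was 0.533.

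**Figure D2:**
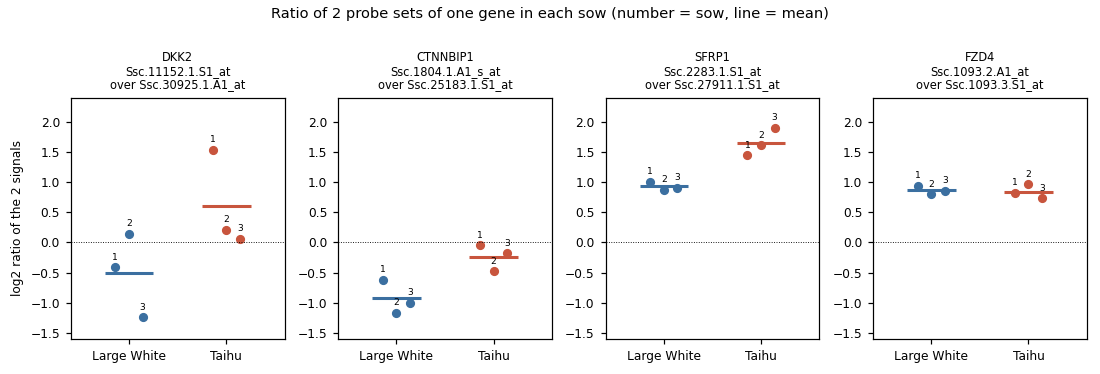
Log2 ratio (y axis) of 2 probe sets of the same gene in each sow, for DKK2, CTNNBIP1, SFRP1 and FZD4. Points are sows and lines are breed means. For CTNNBIP1 the pair drawn is Ssc.1804.1.A1_s_at over Ssc.25183.1.S1_at. The ratio drawn does not overlap between the breeds for CTNNBIP1 and SFRP1, overlaps for DKK2, and stays between 0.73 and 0.96 in all 6 sows for FZD4.

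FZD4, a Frizzled receptor that also serves vessel growth, had 2 probe sets that moved together over the sows (Pearson r = 0.93 over 6 arrays). On Ssc.1093.2.A1_at the signal was 909, 1038 and 796 in LW sows and 764, 920 and 1041 in TH sows. On Ssc.1093.3.S1_at it was 474, 595 and 441, and 432, 474 and 628. LW2 and TH3 were the highest of their breed on both, and LW3 and TH1 the lowest. The log2 differences were -0.01 (95% interval -0.52 to 0.49) and 0.01 (95% interval -0.54 to 0.57). Differences up to these bounds cannot be told from 0 with 3 sows per breed.

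CTNNB1 encodes beta-catenin, which relays canonical WNT signals and also ties cadherins to the actin skeleton. It had 5 probe sets, and none was called. On Ssc.14003.4.S1_at the signal was 2509, 2333 and 2428 in LW sows and 2527, 2329 and 2214 in TH sows, a range of 1.14-fold; 0.964% of the tested probe sets had a smaller range. The log2 difference there was -0.04 (95% interval -0.39 to 0.31). The breeds had close to the same mean on Ssc.14003.1.S1_a_at, at 3734 ± 488 (SD, n = 3) and 3870 ± 507, with a log2 difference of 0.05 (95% interval -0.36 to 0.46).

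The CTNNB1 probe sets did not follow one pattern over the sows. Ssc.11457.1.A1_at had 1597, 3167 and 1843 in LW sows and 1978, 1584 and 2857 in TH sows. LW2 and TH3 were thus high, as they were on Ssc.14003.1.S1_a_at (r = 0.93) and on the FZD4 probe set Ssc.1093.3.S1_at (r = 0.84). Ssc.14003.2.S1_at ran the other way (r = -0.73), with 5028, 3525 and 4422 in LW sows and 5797, 5034 and 4374 in TH sows. The log2 differences were -0.02 (95% interval -0.84 to 0.80) and 0.23 (95% interval -0.22 to 0.69). These correlations are over 6 arrays that share their scaling and are descriptions.

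The remaining CTNNB1 probe set, Ssc.30749.1.S1_at, was low in 1 sow. Its signal was 698, 867 and 593 in LW sows, 239.5 in TH1, and 708 and 636 in the other TH sows. The log2 difference was -0.58 (95% interval -1.65 to 0.49, unadjusted p = 0.238) with this sow and -0.08 without it. The marker lists of this sow are given above, and their part in the low value was not tested.

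**Figure D3:**
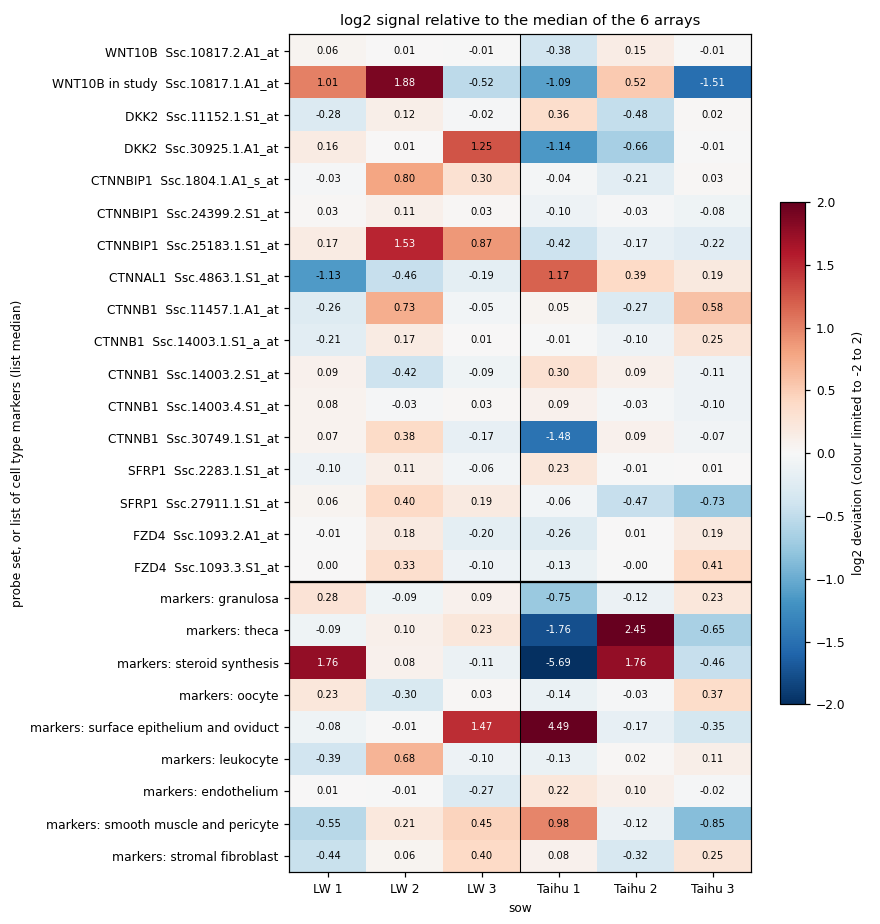
Log2 signal of each probe set minus its median over the 6 arrays, and below the line the list median of the same quantity for 9 lists of cell type markers. Columns are sows, and the colour is limited to -2 and 2. TH1 has the highest epithelium and oviduct value (4.49), followed by LW3 (1.47). TH1 also has the lowest steroid synthesis value (-5.69), and the low CTNNB1 signal on Ssc.30749.1.S1_at is in the column of TH1.

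CTNNBIP1, also called ICAT, is a small protein that sits on beta-catenin and keeps it from TCF factors. On Ssc.25183.1.S1_at the signal was 387, 994 and 632 in LW sows and 257, 307 and 295 in TH sows. The TH sows lay close together and below all LW sows, which were spread widely (SD 305 against 25.9, n = 3 each). Between the breeds the log2 difference was -1.13 (SE 0.35, 95% interval -1.98 to -0.27, unadjusted p = 0.0175, adjusted p = 0.993 by limma). With any 1 of the 6 sows left out it stayed between -1.47 and -0.79, and the unadjusted p between 0.00255 and 0.0479. The smallest difference was the one without LW2, which was also the sow with the high leukocyte markers. Under the methods' t-test the unadjusted p was 0.0480 (exact permutation p = 0.1, the smallest possible).

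The other CTNNBIP1 probe sets had the same sign and smaller differences. Ssc.1804.1.A1_s_at had 251, 445 and 316 in LW sows and 249, 221 and 261 in TH sows. Its breeds overlapped, since LW1 lay below TH3, and the log2 difference was -0.43 (95% interval -1.03 to 0.16, unadjusted p = 0.127). Without LW1 the difference was -0.63 (unadjusted p = 0.0421 by limma). With any other sow left out the unadjusted p was 0.162 or above. Ssc.24399.2.S1_at had 94.9, 100.3 and 94.9, and 87.0, 91.3 and 88.1. The breeds did not overlap there, but the log2 difference was -0.12 (95% interval -0.43 to 0.19), and the range of 1.15-fold over all sows was one of the narrowest on the array.

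All 3 CTNNBIP1 probe sets were highest in LW2. The correlation over the 6 arrays was 0.93 between Ssc.25183.1.S1_at and each of the others, and 0.77 between these. The log2 ratio of Ssc.1804.1.A1_s_at to Ssc.25183.1.S1_at was -1.16 to -0.62 in LW sows and -0.05, -0.48 and -0.18 in TH sows. It did not overlap between the breeds, with a difference of 0.69 (exact permutation p = 0.1, the smallest possible, and 0.533 when adjusted over the 16 pairs). The ratio of Ssc.24399.2.S1_at to Ssc.25183.1.S1_at did not overlap either (difference 1.0, exact permutation p = 0.1, adjusted 0.533). That of Ssc.1804.1.A1_s_at to Ssc.24399.2.S1_at did overlap (difference -0.31, exact permutation p = 0.3, adjusted 0.686).

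CTNNAL1, alpha-catulin, is a relative of alpha-catenin and vinculin. Its 1 probe set, Ssc.4863.1.S1_at, had signals of 87.3, 139 and 167 in LW sows and 429.8, 249.9 and 217 in TH sows. Each TH sow lay above each LW sow, and TH1 was the highest. LW sows had a mean of 131 ± 40.5 and TH sows one of 299 ± 115 (SD, n = 3 each), a ratio of 2.28. This gave a log2 difference of 1.18 (SE 0.35, 95% interval 0.33 to 2.03, unadjusted p = 0.0143, adjusted p = 0.993 by limma). Without TH1 it was 0.88 (unadjusted p = 0.0298). Over the 6 fits that each left out 1 sow it ran from 0.88 to 1.38, with an unadjusted p between 0.0139 and 0.0442.

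The study designed primers for CTNNBIP1 and CTNNAL1 on the expressed sequence tags that the probe table lists for Ssc.25183.1.S1_at and Ssc.4863.1.S1_at. They are shown because they mark the transcripts behind the 2 differences that stayed at an unadjusted p of at most 0.05 with any 1 sow left out. RT-PCR measurements are not used here. The primers are written 5′ to 3′, in lower case, with the antisense primer on the opposite strand.
CTNNBIP1 sense: gctggctgtcagttggag
CTNNBIP1 antisense: tcagcagaaggtccgagtg
CTNNAL1 sense: tttcaggtgactggccaac
CTNNAL1 antisense: agatggatgcaacgtcaaagt

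**Figure D4:**
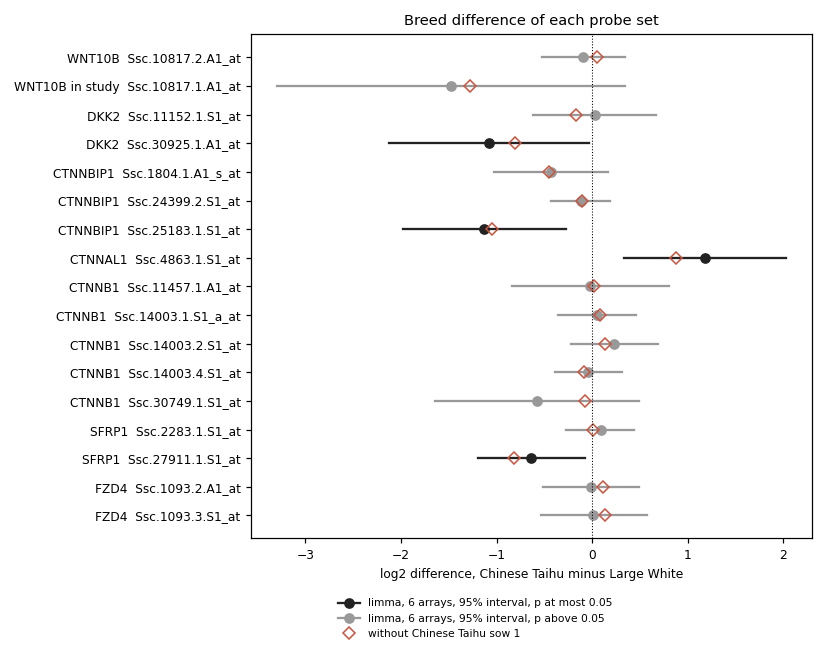
Log2 difference between the breeds (x axis, Chinese Taihu minus Large White) for each probe set, with its 95% interval by limma on 6 arrays. Black marks an unadjusted p of at most 0.05, grey a larger one, and open diamonds the difference without TH1. The intervals of 4 of the 16 probe sets exclude 0, and the DKK2 and CTNNAL1 differences are smaller without that sow (-0.81 and 0.88).

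Other genes of the pathway were read from a list of 131 genes in 8 classes by role. Each gene was represented by its brightest probe set, and 35 genes had one and 34 passed the filter. At an unadjusted p of at most 0.05, CTNNAL1 was higher and CTNNBIP1 was lower in TH sows, that is 2 of 34, and 0 passed adjustment by limma. Over all 6320 genes tested in this way, 3.67% had such a p (2.63% lower and 1.04% higher). Both were also the 2 genes without overlap between the breeds, against 8.80% of all (6.16% lower and 2.64% higher). The study had named both from these same arrays, so these counts are not independent evidence. The list median was a log2 difference of -0.02. Of the 27 tested genes beside those described above, 0 had an unadjusted p of at most 0.05, and their differences ran from -0.47 to 0.67.

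Among ligands and their secretion, WLS, the carrier that brings WNT proteins to the cell surface, had the smallest p. Its signal was 1087, 1406 and 1544 in LW sows and 2319, 2844 and 1450 in TH sows (log2 0.67, 95% interval -0.04 to 1.39, unadjusted p = 0.0613). TH3 lay among the LW sows. Without this sow the difference was 0.95 (unadjusted p = 0.0106), and 3 of the 34 genes were called. It was 0.46 without TH2 (unadjusted p = 0.171), 0.53 without LW1 (0.171) and 0.45 with array weights (0.143).

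FZD2, the receptor with the smallest p, had 368, 448 and 469 in LW and 287, 329.9 and 436 in TH sows (log2 -0.30, 95% interval -0.85 to 0.24, and -0.17 without TH1). DKK3, a secreted relative of DKK2 that is not known as a strong WNT antagonist, had 5543, 6246 and 4964, and 2311, 6578 and 4281 (log2 -0.47, 95% interval -1.36 to 0.43). The low DKK3 signal was that of TH1, and without it the difference was -0.07. In the destruction complex class, TNKS2, a tankyrase that marks AXIN for destruction, had the smallest p (log2 -0.31, 95% interval -0.92 to 0.30).

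None of the nuclear factors that beta-catenin joins was called. TCF7L1 had a log2 difference of -0.06 (95% interval -0.63 to 0.51), TCF7L2 -0.03 (95% interval -0.47 to 0.41) and LEF1 -0.05 (95% interval -0.87 to 0.77). Without TH1 these were -0.18, 0.07 and -0.34. TCF7L2 lay close to the filter, at 50.3 to 68.8 in the 6 sows. The 2 tested genes of the class of common target genes had differences of 0.07 and 0.25, and of 0.13 and -0.20 without TH1. In the polarity branch, RAC1, a GTPase of the actin skeleton, had the smallest p (log2 -0.19, 95% interval -0.67 to 0.29, and -0.10 without TH1).

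DKK1, the best known antagonist of the Dickkopf family, was chosen after its values were seen. Its signal was 6.21, 64.9 and 1411 in LW sows and 42.7, 10.5 and 774 in TH sows. It was thus high in 1 sow of each breed and near or below the filter level of 50 in the other 4. The range over the sows exceeded that of 99.96% of the tested probe sets, and the log2 difference between the breeds was -0.24 (95% interval -5.80 to 5.33) and 0.12 without TH1. CDH1, E-cadherin, which holds beta-catenin at junctions of epithelial cells, stood at 4834 in TH1, 1034 in LW3 and 106 to 221 on the other arrays. Its log2 difference was 0.31 (SE 1.49, 95% interval -3.29 to 3.90, unadjusted p = 0.844 by limma). Without TH1 the difference was -1.40, with LW3 then the 1 high sow.

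**Figure D5:**
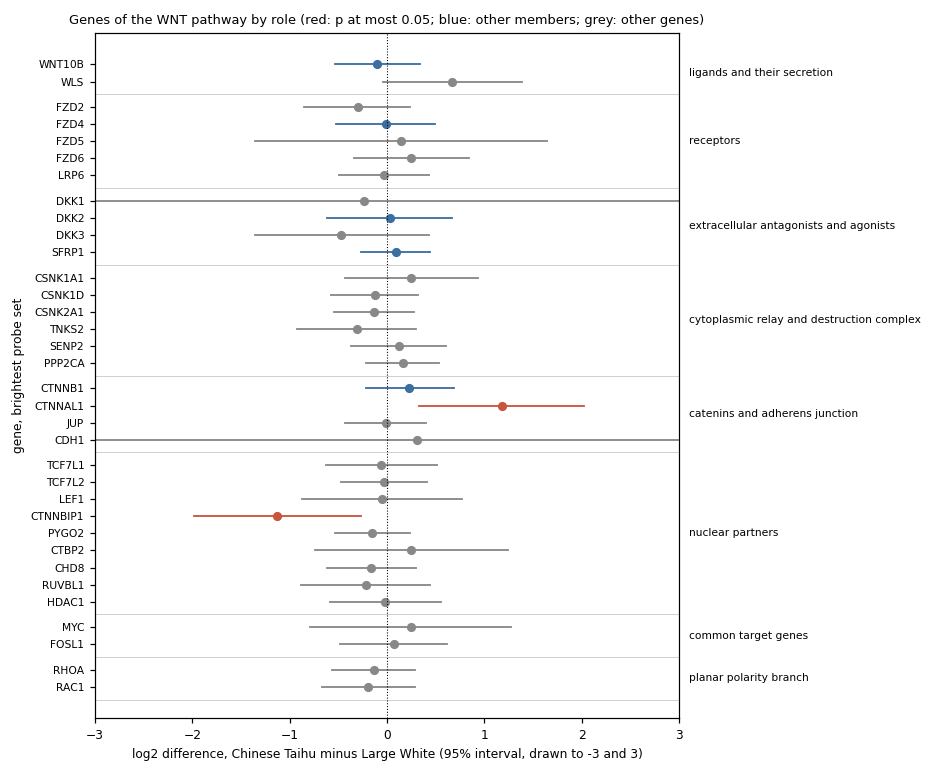
Log2 difference (x axis, Chinese Taihu minus Large White) of the brightest probe set of 34 genes of the pathway, grouped by role, with 95% intervals drawn no further than -3 and 3. Red marks an unadjusted limma p of at most 0.05, blue the other genes followed here and grey the rest. CTNNAL1 (1.18) and CTNNBIP1 (-1.13) stand on opposite sides, and the intervals of the other genes include 0.

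The genes whose signal most resembled 4 of these genes over the 6 arrays were found by Pearson correlation of the log2 signal with the brightest probe set of each, among 3478 to 3480 probe sets with 1 symbol and a range of at least 2-fold. For CTNNBIP1 they were a B2M probe set (r = 0.983), TMEM251 (0.978) and LARP4B (0.976). For CTNNAL1 they were ATP2A2 (0.994), ACAA2 (0.977) and PBLD (0.969), each highest in TH1. For DKK2 on Ssc.11152.1.S1_at they were PDK4 (0.983), CAPN2 (0.981) and CYP2C91 (0.981). For WNT10B on Ssc.10817.2.A1_at they were OAF (0.999), ACSL4 (0.995) and ADAMDEC1 (0.994), each lowest in TH1. With 6 arrays and so many candidates, correlations of this size are a description only.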

How the data were processed

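Labeled cRNA was made from total RNA (5 μg per sow) of preovulatory follicles from 3 Large White and 3 Chinese Taihu sows. A commercial array service hybridized it to Affymetrix porcine arrays, 1 array per sow. The deposited values are linear signal intensities that the authors obtained with MAS5 (version 2.3.1 in the submitters' processing notes), scaled to 500 on each array and brought together by the invariant set method of dChip. With most of the signal thus made equal between arrays, only relative differences can be read. The aligner and genome build do not apply. Intensities carry no read depth, and the number of arrays limits the precision.

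Gene symbols came from the platform's probe table, in which 10099 of 24123 probe sets had 1 symbol, 198 had several and 13826 had none. No probe set with several symbols was named. The 188 control probe sets were left out, and of the remaining 23935, the 19196 that exceeded 50 in 3 sows or more were tested. Signals under 1 were set to 1 and log2 values were compared between the breeds with limma 3.58.1 (R 4.3.3; lmFit, eBayes with an intensity trend) on all 6 arrays, 2-sided, with Benjamini-Hochberg adjustment over all tested probe sets. The same fit was also run on simulated arrays with known changes, after the fits of the real arrays, and its outcome is not given here. Exact permutation tests of 3 sows against 3 were computed with Python 3.11.15. The methods' t-test was run on the same values.

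The genes, the pathway list and the 9 marker lists were chosen with earlier results of these data known. All probe sets of the 8 genes were named, together with pathway genes with an unadjusted p of at most 0.05 by their brightest probe set (highest mean log2 signal), the gene with the smallest p in each role class, and the 3 most correlated probe sets for 4 of the genes. DKK1, LEF1, TCF7L1, TCF7L2 and CDH1 were added after their values were seen, and the class of common target genes is given by its values without names. Alternatives covered the normalization, the filter, the floor, the prior variance, array weights, the test, the block on array number, the choice of probe set and each sow left out in turn.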

Additional observations from a re-analysis of the deposited data

How the results depend on the processing

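Of 271 log2 differences computed for 17 probe sets under 16 alternatives, 252 kept their direction, among them all those of the 4 called probe sets. The 19 reversals were in 7 probe sets whose difference was near 0. WNT10B on Ssc.10817.2.A1_at was 0.05 without TH1 (range with 1 sow left out -0.21 to 0.05). DKK2 on Ssc.11152.1.S1_at was -0.06 with array weights, -0.17 without TH1, -5.9e-05 without TH3 and -0.08 without LW1 (range -0.17 to 0.25). CTNNB1 on Ssc.11457.1.A1_at was 0.03 with quantile normalization and 0.02, 0.18 and 0.28 without TH1, TH2 and LW2 (range -0.25 to 0.28). CTNNB1 on Ssc.14003.1.S1_a_at was -0.05 without TH3 or LW1 (range -0.05 to 0.14), and on Ssc.14003.4.S1_at 0.0019 without TH3 (range -0.09 to 0.0019). FZD4 on Ssc.1093.2.A1_at was 0.02 with quantile normalization, 0.11 without TH1 and 0.08 without LW2 (range -0.12 to 0.11). FZD4 on Ssc.1093.3.S1_at was -0.0041 with median scaling and -0.14, -0.02 and -0.07 without TH3, LW1 and LW3 (range -0.14 to 0.14). The cause of these reversals was not tested.

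Of the 16 probe sets, 4 had an unadjusted p of at most 0.05. The count was 2 by the methods' t-test paired by array number, which lost CTNNBIP1 on Ssc.25183.1.S1_at (0.0718), CTNNAL1 (0.179) and SFRP1 on Ssc.27911.1.S1_at (0.132) and called CTNNBIP1 on Ssc.24399.2.S1_at (0.00463). It was 2 to 4 with 1 sow left out, and 0 passed adjustment in any alternative. Over all probe sets the count of 741 became 1303 with array weights and 373 to 1225 with 1 sow left out, lowest without LW2 and highest without TH2. The adjusted count of 4 became 11 with array weights, 0 by the methods' t-test, paired or unpaired, and 2 to 4 with 1 sow left out. In the pathway list the count of 2 became 0 by the paired t-test, 4 with the probe set of smallest p for each gene, 3 with quantile normalization (WLS added, 0.68) and 2 to 4 with 1 sow left out. Without TH2, DKK3 (-0.82) and CTBP2 (0.68) were added. With the signal filter at 100, CTNNBIP1 on Ssc.24399.2.S1_at was not tested.

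The labels number the arrays as biological replicates and do not say that the numbers pair the sows. Deviations of the same-numbered sows correlated at -0.172, -0.137 and 0.273, and the highest correlation (0.512) was between LW1 and TH2. With 3 sows per breed these correlations cannot decide whether arrays of the same number shared a step. With array number as a replicate block, 719 probe sets had an unadjusted p of at most 0.05 and 0 an adjusted p below 0.05. Of the 16 probe sets 3 were then called, and SFRP1 on Ssc.27911.1.S1_at was not.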

Other observations

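Probe sets without a symbol in the probe table share the transcript cluster numbers of FZD4 and CTNNB1, and were left out of the counts. Ssc.1093.1.A1_at, of the FZD4 cluster, had a signal of 229.5, 409 and 212 in LW sows and 224, 296 and 517 in TH sows (log2 difference 0.26, SE 0.40, unadjusted p = 0.531 by limma). LW2 and TH3 were the highest of their breed, as on both FZD4 probe sets. Ssc.14003.5.S1_at, of the CTNNB1 cluster, had 864, 879 and 899 in LW sows and 534, 826 and 928 in TH sows (log2 difference -0.25, SE 0.25, unadjusted p = 0.363 by limma). The low value was that of TH1, as on the CTNNB1 probe set Ssc.30749.1.S1_at, and without this sow the difference was -0.01.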
